A study of Mus musculus with 2148 samples.

Results

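Among single thymic epithelial cells (TECs) sorted from 1-day-old wild-type (WT) mice, 56 cells, or 12.9%, were cycling by their own RNA. They made up 2.83% of all cells of the series, of which 21.9% were newborn. They were chosen by expression: a newborn cell was taken as cycling when at least 5 of 7 proliferation genes, Mki67, Top2a, Ccnb1, Cdk1, Birc5, Cenpf and Ube2c, each reached 20 CPM. CPM is the number of deduplicated reads of a gene per 1000000 reads on genes in the same cell, not divided by gene length, so that levels were compared between cells and not between genes. The 56 cells comprised 16 cortical TECs (cTEC), 25 medullary TECs with low surface MHC class II (mTEClo) and 15 with high MHC class II (mTEChi). They were set against the newborn cells in which 0 or 1 of the 7 genes reached 20 CPM, called comparison cells below, which were 71.9% of cTEC, 54.8% of mTEClo and 62.6% of mTEChi. The remaining 23.7% of newborn cells, with 2 to 4 of the 7 genes, lay between the classes and are given only where named. Since measured values chose the cells, differences between cycling and comparison cells are described and not tested.

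The series profiled single TECs of C57BL/6 mice, adult WT, adult Aire-knockout and newborn WT, with RamDA-seq, which reads total RNA along the whole transcript. The knockout cells were not used here. Cells had been depleted of CD45+ cells and sorted one to a well as DAPI-, CD45-, EpCAM+ cells, with Ly51+ cells taken as cTEC and Ly51- cells as mTEChi or mTEClo. The newborn cells fell into 5 experimental batches, numbered 16 to 20 in the labels, and each batch held all 3 sorts. The newborn mice were of unknown sex in the labels and were not numbered, so the newborn cells of a sort are 1 pool, and a batch is not shown to be a separate set of mice. Adult WT cells came from mice of 4 to 8 weeks and were pooled by their age and sex labels, which gave 4 mTEChi pools, 3 mTEClo pools and 1 cTEC pool. Some pools may hold cells of several mice. No doublet caller was run, and reads were counted without strand, so that antisense and overlapping genes cannot be separated.

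A dividing cell passes through S phase, in which the MCM helicase and the DNA polymerases copy the genome while histones are made to pack it, and then through G2 and mitosis, in which kinetochores, kinesins and the spindle separate the chromosomes and the anaphase-promoting complex degrades cyclins. E2F transcription factors drive the S phase genes. Many mitotic genes carry CCAAT boxes, read by NF-Y, and a cell cycle homology region (CHR), read by the MuvB complexes with B-Myb and FOXM1. In the newborn thymus the epithelium expands while cTECs support early thymocytes and mTEChi cells, many of which express the regulator Aire, display tissue antigens.

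Promoter sequence is shown for 7 genes. The S phase and the mitotic genes among them differ in CHR forms and largely in E2F forms, while both groups carry CCAAT. Cyclin B1 (Ccnb1, chr13:100786467-100786646 on the minus strand), Cdk1 (chr10:69352893-69353072 on the minus strand), cyclin B2 (Ccnb2, chr9:70421535-70421714 on the minus strand) and the kinase Plk1 (chr7:122159275-122159454 on the plus strand) act in G2 and mitosis. The helicase subunits Mcm5 (chr8:75109349-75109528 on the plus strand) and Mcm6 (chr1:128359686-128359865 on the minus strand) act in S phase, and Psmb11 (chr14:54625150-54625329 on the plus strand), the thymoproteasome subunit of cTECs, is shown for contrast. Each sequence, from RefSeq on GRCm38.p6, runs 5′ to 3′ on the gene's strand from 160 bases before its start to 20 bases from the start onward. Capitals mark the box CCAAT, which reads ATTGG where it lies on the other strand, and 3 CHR forms, namely TTTGAA, its variant TTCGAA, and the variant TTTAAA. They also mark 4 E2F forms, namely TTTGGCGC, its variant TTTCGCGC, the variant TTTCCCGC, and the variant TTTGCCGC. All were searched on both strands. Neighbouring matches that overlap are capitalised as 1 run.
Ccnb1: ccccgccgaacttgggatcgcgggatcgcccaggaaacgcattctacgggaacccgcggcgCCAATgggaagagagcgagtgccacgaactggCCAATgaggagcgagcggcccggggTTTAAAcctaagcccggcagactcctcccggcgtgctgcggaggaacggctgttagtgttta
Cdk1: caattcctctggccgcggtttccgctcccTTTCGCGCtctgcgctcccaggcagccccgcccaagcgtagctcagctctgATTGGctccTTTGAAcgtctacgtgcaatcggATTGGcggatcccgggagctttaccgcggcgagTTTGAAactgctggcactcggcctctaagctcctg
Ccnb2: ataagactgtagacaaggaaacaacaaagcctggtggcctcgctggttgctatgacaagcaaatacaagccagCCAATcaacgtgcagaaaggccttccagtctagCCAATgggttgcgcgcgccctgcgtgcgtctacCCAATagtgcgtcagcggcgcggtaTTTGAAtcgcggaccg
Plk1: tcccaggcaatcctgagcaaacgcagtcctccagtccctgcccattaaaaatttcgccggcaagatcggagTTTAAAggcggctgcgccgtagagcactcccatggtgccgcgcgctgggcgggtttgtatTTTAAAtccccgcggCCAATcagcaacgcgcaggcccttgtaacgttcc
Mcm5: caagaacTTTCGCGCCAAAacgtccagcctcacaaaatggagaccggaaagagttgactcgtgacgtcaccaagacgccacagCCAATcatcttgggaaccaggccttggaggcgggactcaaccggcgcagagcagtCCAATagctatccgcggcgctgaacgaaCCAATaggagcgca
Mcm6: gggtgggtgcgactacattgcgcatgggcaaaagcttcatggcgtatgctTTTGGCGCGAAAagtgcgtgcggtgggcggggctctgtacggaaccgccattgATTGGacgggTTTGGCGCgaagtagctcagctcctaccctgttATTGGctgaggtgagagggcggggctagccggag
Psmb11: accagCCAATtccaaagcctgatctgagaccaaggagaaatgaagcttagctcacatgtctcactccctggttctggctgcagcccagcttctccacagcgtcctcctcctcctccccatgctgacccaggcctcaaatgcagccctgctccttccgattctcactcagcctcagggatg

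Ccnb1, Cdk1, Ccnb2 and Plk1 each held at least 1 CCAAT and at least 1 CHR form, and Cdk1 also held the E2F form TTTCGCGC at −131 from the start. Mcm5 held 2 overlapping E2F forms, at −153 and −149, and Mcm6 held 3, at −110, −106 and −47, and neither held a CHR form in this window. Both Mcm5 and Mcm6 also held CCAAT. Psmb11 held 1 CCAAT and neither of the others. Over longer windows of 300 bases, from 250 before the start to 50 after it, all 7 genes of the rule held a CHR form and 6 held both CCAAT and CHR, against 11.5% of all 27025 promoters for the pair. Of 59 matched promoters of the mitotic kinase, kinetochore and spindle lists, 52.5% held both motifs, and 6.78% held an E2F form. Of 51 matched promoters of the replication lists, 17.6% held both, and 27.5% held an E2F form, against 2.32% of all promoters. CCAAT, with or without a CHR form, was held by 66.1% of the mitotic set, 58.8% of the replication set and 37.9% of all promoters. A CHR form, with or without CCAAT, was held by 69.5, 27.5 and 29% of them in turn. Among the genes higher in cycling cells of every sort, described further on, 75.98% were matched to a promoter, and 28.9% of these held both motifs and 17.7% an E2F form. Of 16845 genes measured in any sort, 11955 were matched, and 8.91% and 3.74% of these held them. A match describes the letters of the window and does not show that a factor binds there.

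Cycling cells were read about as deeply as the comparison cells. The median depth was 725483 reads in cycling and 694938 in comparison cTEC, 657579 and 650552 in mTEClo, and 640331 and 543603 in mTEChi. After every cell was thinned to 200000 reads, the median number of genes with a read was 12809.5 and 11757.5 in cTEC, 12303 and 11817.5 in mTEClo, and 12550 and 11555 in mTEChi, higher in the cycling cells of every sort. Without thinning the medians were 15877.5 and 14073, 14862 and 13742, and 15192 and 13454. The cells kept the epithelial markers of their gate. The summed CPM of 10 epithelial genes, Epcam and keratins 8 and 18 among them, had a median of 3759.8 in cycling cTEC, 3141 in cycling mTEClo and 3116 in cycling mTEChi, against 4452, 3803 and 3184 in comparison cells.

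The share of cycling cells was highest in mTEClo, at 20.2% (95% exact binomial interval 13.5 to 28.3%), followed by 11.5% (6.72 to 18.0%) in cTEC and 8.77% (4.99 to 14.1%) in mTEChi. The intervals cover counting error only, and neighbours in this order overlap, those of mTEClo and mTEChi by less than 1 percentage point. The order of cTEC and mTEChi turned with a stricter rule, with 6.47% of cTEC and 7.60% of mTEChi cycling at 6 or more of the 7 genes. Over all sorts the share was 12.9% (9.90 to 16.4%). In batches 16 to 20 in turn, the share in mTEClo was 18.2, 20, 28, 27.6 and 6.90%, and mTEClo was above mTEChi in all 5 batches. In cTEC it was 18.9, 16.7, 13.6, 0 and 7.69%, and in mTEChi 10, 9.09, 8.82, 9.38 and 6.25%. In batches 16 and 20 cTEC exceeded mTEClo. In batch 20 mTEClo and mTEChi had 2 cycling cells each, of 29 and 32. Batch 19 held no cycling cTEC among 30, which allows a share of up to 10%, while 8 of its 29 mTEClo cells were cycling. Batch 20 had the lowest share over all sorts, 6.90%, with 6 cycling cells of 87, against 12.1 to 16.05% in the others.

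**Figure D1:**
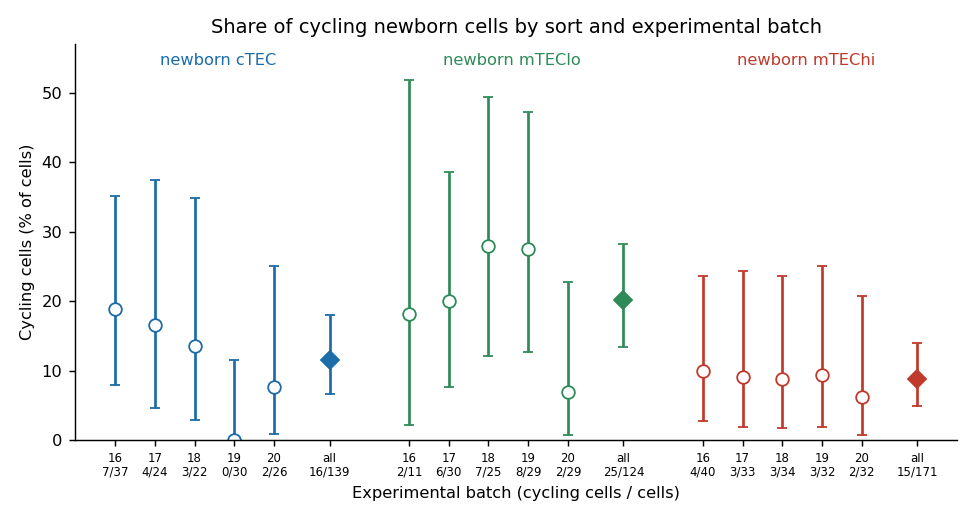
Share of newborn cells that were cycling (vertical axis, percent) by sort and batch (horizontal axis), with 95% exact binomial intervals and the share over all batches as diamonds. mTEClo reached 28% in batch 18, mTEChi stayed between 6.25 and 10%, and cTEC ran from 0 to 18.9%.

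The 7 genes that chose the cells are given as a description. Mki67, the antigen Ki-67, had a lowest, median and highest level of 114.3, 990.6 and 2568 CPM in the 56 cells, and topoisomerase II alpha (Top2a) had 130.3, 893.03 and 1719.995. The mitotic kinase Cdk1 had 69.6, 289.4 and 695.99, and the kinetochore protein Cenpf 28.9, 125.6 and 1306.9. These 4 genes reached 20 CPM in all 56 cells. Survivin (Birc5), a subunit of the chromosomal passenger complex, did so in 55 cells (10.4, 87.5 and 241.2 CPM), and Ube2c, the ubiquitin-conjugating enzyme of the anaphase-promoting complex, in 44 (0, 65.9 and 545.99). Cyclin B1 was the gene most often below the threshold, with 23 cells at 20 CPM or more and levels of 0, 17.3 and 176.8. In the comparison cells the median was 5.07 CPM for Mki67, 4.04 for Top2a and at most 1.62 for the others.

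The number of genes at 20 CPM was not evenly spread. Of all newborn cells 39.4% had 0 of the genes, 23.96% had 1, and 59, 25, 19, 12, 22 and 22 cells had 2 to 7 in turn, with the fewest cells at exactly 5. The 12 cells just inside the rule, with exactly 5 genes, had medians of 507.3 CPM of Mki67, 596.8 of Top2a, 168.98 of Cdk1, 36.99 of Birc5, 65.96 of Cenpf, 7.902 of Ube2c and 4.98 of Ccnb1. The 19 cells just outside, with exactly 4, had 224.2, 263.3, 76.2, 15.7, 30.8, 5.44 and 1.08. Mki67, Top2a and Cdk1 were thus well above the comparison cells on both sides of the limit, and the line falls within a range rather than at a gap.

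The 56 cells spread over S phase and G2/M. The level of 20 S phase genes summed per cell (the MCM genes, Pcna, Rrm2 and others) and that of 20 G2/M genes outside the rule (Ccnb2, Plk1, Aurka and others) were both above the 90th percentile of the comparison cells, 668.7 and 149.99 CPM, in 52 of the 56 cells, and the G2/M level alone was in the other 4. Within the cycling cells the levels ran in opposite directions, with a Pearson r of -0.681 and a Spearman rho of -0.692 over 56 cells, which share libraries and depth and are not replicates. At the medians of the 56 cells, 4016 CPM for S and 1914.7 for G2/M, 20 cells were high for S alone, 20 for G2/M alone, 8 for both and 8 for neither. Among cycling mTEClo 17 of 25 lay above the S median, compared with 6 of 16 cTEC and 5 of 15 mTEChi. The median S level was 4866 CPM in mTEClo, 3388 in cTEC and 1904.5 in mTEChi, and the G2/M medians were 1938.1, 1321.8 and 2002.3. The cells above the S median were unevenly spread over the batches, 4 of 13, 10 of 13, 6 of 13, 6 of 11 and 2 of 6 in batches 16 to 20.

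**Figure D2:**
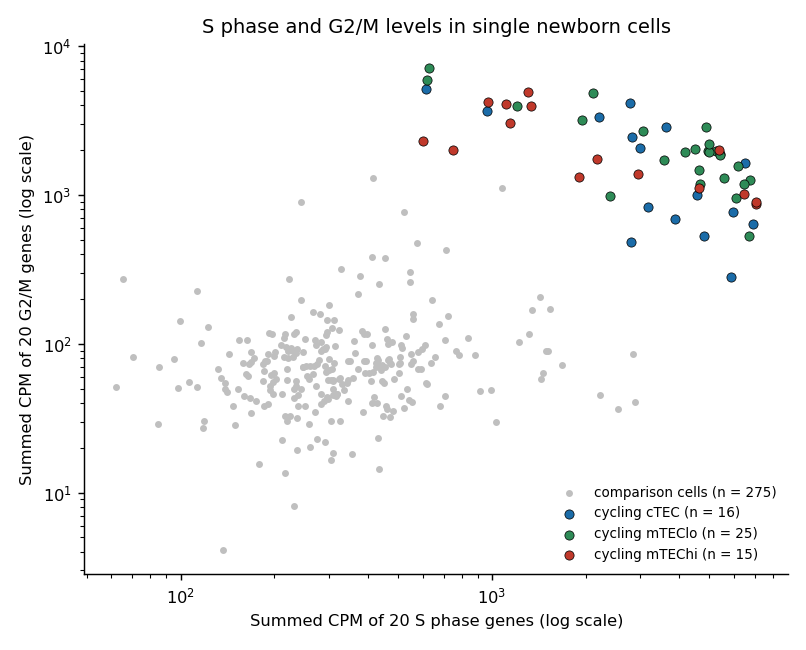
Summed CPM of 20 S phase genes (horizontal log axis) against that of 20 G2/M genes (vertical log axis), 1 point a cell, with the comparison cells in grey and the 16 cTEC, 25 mTEClo and 15 mTEChi cycling cells in colour. For G2/M, 15 of 16 cTEC, all 25 mTEClo and 11 of 15 mTEChi cycling cells lie above every comparison cell of their sort, which the rule, built mostly on mitotic genes, favours. Within the cycling cells the 2 levels run in opposite directions, with a Spearman rho of -0.692.

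The cells between the classes differed by sort on these levels. Of 23 such cTEC cells 19 were above the comparison percentile for S and 17 for G2/M. Of 31 mTEClo cells 20 and 16 were, and of 49 mTEChi cells 10 and 20.

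Gene by gene, counts were summed over the cycling and over the comparison cells of a sort. A gene was called higher or lower when its CPM, with 1 added, differed at least 2-fold, reached 5 CPM in the higher class, and differed the same way in every batch with 3 or more cells of both classes, which were 3 batches in cTEC, 3 in mTEClo and 4 in mTEChi. Of 13159 genes measured in cTEC 7.38% were higher in cycling cells and 4.52% lower. Of 13994 in mTEClo 5.85% were higher and 5.52% lower, and of 15723 in mTEChi 8.73% were higher and 12.8% lower. All measured genes had a median log2 fold change of 0.04 in cTEC, -0.11 in mTEClo and -0.01 in mTEChi. Without batch 17 the lower genes of mTEClo came to 10.004% of the same total. Since the rule used this contrast, nothing is read from the shares.

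The genes that license and start replication were higher in cycling cells throughout, 19 of 19 in each sort, with a median log2 fold change of 3.35 in cTEC, 2.50 in mTEClo and 2.96 in mTEChi. Mcm5, a subunit of the replicative helicase, had 374.8 against 31.4 CPM in cTEC, 432.5 against 60.3 in mTEClo and 288.6 against 22.1 in mTEChi. In cycling cTEC single cells had a lowest, median and highest level of 104.2, 345.2 and 892.4 CPM, and comparison cells 0, 16.9 and 408.5, so that the classes overlapped at their edges. Mcm6 had 347.3 against 50.4 CPM in cTEC, 418.5 against 93.7 in mTEClo and 232.5 against 16.02 in mTEChi. Ticrr, which loads Cdc45 onto the helicase, had 121.8 against 2.52 CPM in cTEC, 190.9 against 4.72 in mTEClo and 114.1 against 2.35 in mTEChi. Cdc45 itself had 61.4 against 3.44 CPM in cTEC, 82.95 against 4.196 in mTEClo and 87.9 against 8.35 in mTEChi. In each sort the fold of Ticrr was larger than that of Mcm5 or Mcm6.

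At the replication fork 27 genes were measured of 28, and 27, 26 and 27 of them were higher. Rfc1, a subunit of the clamp loader, missed in mTEClo with a log2 fold change of 0.98. Pole, the leading-strand polymerase, had 260.6 against 3.41 CPM in cTEC, 429.2 against 13.1 in mTEClo and 252.05 against 17.2 in mTEChi. The sliding clamp Pcna had 80.7 against 18.1 CPM in cTEC, 110.5 against 29.1 in mTEClo and 82.1 against 31.6 in mTEChi. Claspin (Clspn), which stabilises forks, had 115.4 against 2.55 CPM in cTEC, 171.1 against 1.52 in mTEClo and 81.9 against 17.2 in mTEChi. The genes that copy DNA methylation to the new strand were among them. Uhrf1 had 400.7 against 25.3 CPM in cTEC, 490.6 against 51.1 in mTEClo and 541.1 against 67.6 in mTEChi, and the maintenance methyltransferase Dnmt1 576.2 against 120.8 CPM in cTEC, 755.5 against 193.3 in mTEClo and 443.9 against 104.5 in mTEChi.

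Of 13 genes of nucleotide supply 10, 10 and 13 were higher in cTEC, mTEClo and mTEChi. Gart, Ctps and Shmt1 were called in mTEChi alone, and the difference between sorts was not tested. Rrm2, the cell cycle-limited subunit of ribonucleotide reductase, had 267.1 against 9.61 CPM in cTEC, 429.3 against 14.1 in mTEClo and 445.7 against 12.5 in mTEChi. Thymidylate synthase (Tyms) had 118.5 against 4.18 CPM in cTEC, 156.7 against 7.76 in mTEClo and 123.7 against 4.41 in mTEChi. Of 15 repair genes 14, 14 and 15 were higher, with Atr called in mTEChi alone. Brca1 had 143.4 against 14.95 CPM in cTEC, 219.5 against 18.1 in mTEClo and 209.3 against 25.1 in mTEChi. Most supply and repair genes were therefore higher in the cycling cells of each sort.

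Replication-dependent histones, whose transcripts lack a poly(A) tail and are read by a total RNA method, were higher too. The files list 62 such genes, of which 27, 38 and 30 were measured, and 22, 35 and 25 of these were higher. A total of 20 genes were higher in all 3 sorts. The linker histone Hist1h1b had 137.4 against 1.68 CPM in cTEC, 304.1 against 7.21 in mTEClo and 157.7 against 1.93 in mTEChi, and Hist1h1a 80.2 against 1.14 CPM in cTEC, 205.8 against 2.59 in mTEClo and 77.4 against 1.12 in mTEChi. These genes are near-identical copies, so the share of reads given to each is uncertain and the sum is safer. The summed level had a median of 718.8 CPM in cycling against 110.2 in comparison cTEC, 1815.2 against 117.2 in mTEClo and 568.7 against 117.9 in mTEChi. In mTEClo 23 of 25 cycling cells were above every comparison cell, against 11 of 16 in cTEC and 8 of 15 in mTEChi. At 1 limit for all sorts, the 90th percentile of all comparison cells (257.5 CPM), 24 of 25 mTEClo, 12 of 16 cTEC and 10 of 15 mTEChi cells were high. Of the 46 cells that were high for histones, 45 were also high for the S phase level, but within the 56 cells the histone level went only loosely with it (Pearson r 0.466, Spearman rho 0.274) and not with the G2/M level (-0.056 and -0.048).

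Of 16 cyclin and CDK genes 11, 10 and 13 were higher. Cyclin A2 (Ccna2), the partner of CDKs in S phase and G2, had 211.6 against 4.36 CPM in cTEC, 255.6 against 3.18 in mTEClo and 212.7 against 1.41 in mTEChi. Single cycling mTEChi had 130.5, 184.7 and 352.2 CPM as lowest, median and highest, and comparison cells 0, 0 and 18.3. Cyclin E1 (Ccne1), which acts at the entry to S phase, had 44.8 against 2.395 CPM in cTEC, 48.9 against 2.15 in mTEClo and 28.4 against 3.75 in mTEChi, and cyclin B2 (Ccnb2) 117.4 against 3.22 CPM in cTEC, 99.9 against 5.17 in mTEClo and 114.1 against 3.72 in mTEChi. Cyclin D1 (Ccnd1), which couples growth signals to the cycle, was called in mTEChi alone, at 156.5 against 41.6 CPM, with 26.1 against 9.68 in cTEC and 45.9 against 45.9 in mTEClo. Its kinase Cdk4 was likewise called only there, at 260.8 against 62.7, with 364.6 against 235.4 in cTEC and 408.6 against 240.4 in mTEClo. The difference between sorts was not tested.

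Of the 19 regulators of the E2F and MuvB families 10 were higher in each sort. The activator E2f1 had 38.5 against 2.31 CPM in cTEC, 43.3 against 5.33 in mTEClo and 44.4 against 3.94 in mTEChi. The repressors of late S phase, E2f7 and E2f8, were higher as well. E2f7 had 186.9 against 14.6 CPM in cTEC, 229.2 against 14.7 in mTEClo and 133.9 against 4.77 in mTEChi, and E2f8 129.8 against 6.87 CPM in cTEC, 199.4 against 13.4 in mTEClo and 70.02 against 1.94 in mTEChi. Of the transcription factors that switch on mitotic genes, B-Myb (Mybl2) had 62.9 against 5.57 CPM in cTEC, 94.4 against 9.57 in mTEClo and 83.005 against 5.64 in mTEChi, and Foxm1 247.7 against 65.2 CPM in cTEC, 290.6 against 39.5 in mTEClo and 176.1 against 7.16 in mTEChi. Activators and repressors of the same family were thus higher together.

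Mitotic genes had the largest differences of the lists, but most of the 7 genes of the rule are themselves mitotic genes. The rule therefore favours these lists, and nothing is read from this order or from the separation of the classes below. All 31 spindle genes and all 24 centromere and kinetochore genes were higher in each sort, and 14, 14 and 13 of 14 mitotic kinases and checkpoint genes were. Ttk missed in mTEChi with 53.1 against 16.7 CPM. The median log2 fold change of the spindle genes was 4.73 in cTEC, 4.84 in mTEClo and 3.54 in mTEChi. Bub1, a kinase of the spindle checkpoint, had 94.5 against 0.257 CPM in cTEC, 131.1 against 0.272 in mTEClo and 90.8 against 3.68 in mTEChi. The Aurora kinase Aurkb had 134.1 against 1.53 CPM in cTEC, 200.6 against 2.63 in mTEClo and 133.9 against 1.81 in mTEChi, and Plk1, whose promoter is printed above, 148.9 against 1.65 CPM in cTEC, 130.7 against 3.61 in mTEClo and 120.6 against 4.74 in mTEChi. In single cycling mTEClo Aurkb had 7.22, 187.7 and 495.8 CPM as lowest, median and highest, against 0, 0.4698 and 18.8 in comparison cells. The motor Kif11, which pushes spindle poles apart, had 259.7 against 4.38 CPM in cTEC, 353.7 against 4.105 in mTEClo and 245.98 against 7.99 in mTEChi, and the kinetochore scaffold Knl1 132.7 against 1.198 CPM in cTEC, 186.6 against 1.68 in mTEClo and 138.4 against 9.46 in mTEChi. Per cell, the summed spindle genes of all 16 cTEC and all 25 mTEClo cycling cells, and of 14 of 15 mTEChi, lay above every comparison cell of their sort.

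Of 22 genes of condensin, cohesin and chromosome structure 18, 16 and 20 were higher. The condensin subunit Ncapd2 had 539.04 against 40.4 CPM in cTEC, 766.4 against 47.8 in mTEClo and 439.4 against 26.3 in mTEChi. Of the 19 genes around the anaphase-promoting complex only 4, 5 and 5 were higher, and its core subunits were among the rest. Cdc20, the activator of the complex, its inhibitor Fbxo5, and the protease separase (Espl1), which opens cohesin, were higher in all sorts. Cdc20 had 142.3 against 3.72 CPM in cTEC, 143.2 against 7.05 in mTEClo and 139.5 against 2.78 in mTEChi, and Espl1 235.5 against 0.941 CPM in cTEC, 295.8 against 2.52 in mTEClo and 214.4 against 1.89 in mTEChi. The list's median log2 fold change was 0.49, 0.37 and 0.83. These 3 genes act with or downstream of the complex and are not its subunits.

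Of 15 CDK inhibitors and p53 targets 2 were higher in each sort, the inhibitors of CDK4 and CDK6 encoded by Cdkn2c and Cdkn2d. Cdkn2c had 33.02 against 0.756 CPM in cTEC, 53.9 against 1.16 in mTEClo and 31.3 against 2.56 in mTEChi. The p21 gene Cdkn1a was lower in cTEC, at 12.1 against 37.6 CPM, and in mTEChi, at 59.98 against 223.8. In cTEC the per-cell medians, 7.303 and 8.07 CPM, were close, and a comparison cell of 1699.04 CPM weighed on the sum. Also lower were Cdkn1c and Trp53inp1 in mTEClo and Cdkn2b in mTEChi.

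Growth genes differed most in mTEChi. Of 17 genes of MYC, the nucleolus and translation 12 were higher there, against 2 in cTEC and 2 in mTEClo, where Nop56 and Nop58 of the box C/D ribonucleoprotein were called. The difference between sorts was not tested. In mTEChi Myc had 132.4 against 61.9 CPM, nucleolin (Ncl) 469.9 against 154.3, and spermidine synthase (Srm) 142.3 against 32.9. The summed level per cell had a median of 1522.98 CPM in cycling against 718.9 in comparison mTEChi, 1512.1 against 876.4 in cTEC and 1408.1 against 1100.02 in mTEClo. The cycling medians of the sorts lay closer together than the comparison medians. Summed by batch, the level of mTEChi was higher in cycling cells in each batch. In batch 20, which held 2 cycling mTEChi, it was so only narrowly (848.04 against 802.8 CPM).

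**Figure D3:**
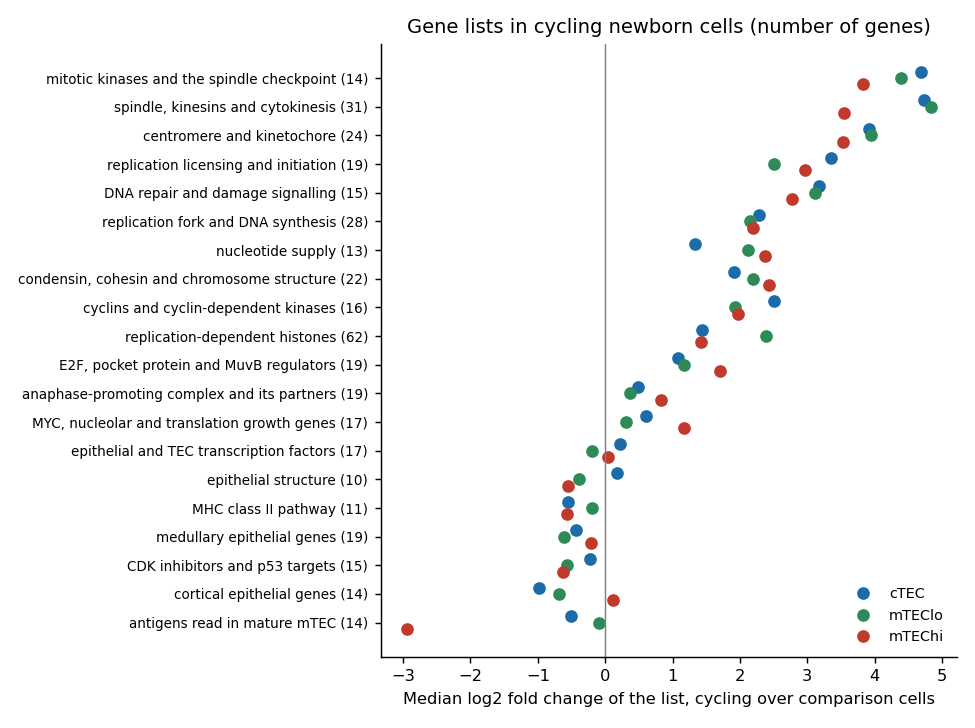
Median log2 fold change of cycling over comparison cells (horizontal axis) for 20 gene lists (vertical axis), 1 mark a sort. The spindle list reached 4.73 in cTEC and 4.84 in mTEClo, the cell cycle lists lie right of 0, and the antigen list of mTEChi lies at -2.94.

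Cortical genes were lower in cycling cTEC. Of 14 genes 7 were lower and 0 higher in cTEC, with a median log2 fold change of -0.98. Psmb11 had 15.6, 297.9 and 1148.5 CPM as lowest, median and highest in the 16 cycling cells, against 3.84, 1150.6 and 2248 in comparison cells. The serine protease Prss16 had 52.8, 636.6 and 2363 against 52.2, 2429.95 and 5046, and the chemokine Ccl25, which draws thymocyte progenitors, 22.2, 178.6 and 1013.1 against 17.4, 997.95 and 1874.1. The single cells overlapped, with the cycling cells in the lower part of the range. The membrane protein Cd83, known in cTECs for its role in CD4 T cell selection, had medians of 40.9 and 566.9. Foxn1, the master regulator of TECs, did not pass the size rule, with medians of 409.7 and 746.1 CPM and a log2 fold change of -0.86.

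Summed over the 14 cortical genes, cycling cTEC had 2507, 6323 and 12042 CPM as lowest, median and highest, against 1344.7, 13525 and 22158 in comparison cells. All 16 lay below the comparison median, and 15 below its lower quartile of 10856 CPM. The 23 cells between the classes had a median of 8253. The difference held in each batch with cycling cTEC: 4474 against 12134 CPM in batch 16, 5669 against 12598 in batch 17, 8585 against 15483 in batch 18 and 7642 against 11249 in batch 20. In mTEClo 6 of the 14 cortical genes were lower, with summed levels of 757.1, 4101 and 7687 CPM against 224.6, 5279.7 and 19709.9, and 20 of 25 cycling cells were below the comparison median. The batches of mTEClo did not all go one way. The summed level was lower in cycling cells in batches 17, 18 and 19, and higher in batch 16 (4471 against 4127 CPM) and batch 20 (4207 against 3249), which held 2 cycling cells each.

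Many cycling mTEClo cells carried cortical RNA. Psmb11 reached 20 CPM in 21 of the 25 cells and Aire in 6, with 4 cells at 20 CPM for both, 17 for Psmb11 alone, 2 for Aire alone and 2 for neither. Of the 16 cycling cTEC, 9 had Psmb11 alone, 6 had both and 1 had Aire alone. Aire reached at most 49.1 CPM in these cTEC, and of 100 comparison cTEC 18 had both and 2 had Aire alone. Of the 15 cycling mTEChi, 13 had Aire alone, 1 had Psmb11 alone and 1 had both. The cycling mTEClo cells had a median of 127.8 CPM of Psmb11 and 380.9 of Prss16, against 210.6 and 640.02 in comparison mTEClo. Cells of the labelled mTEClo sort thus often held the defining cortical gene in both classes.

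Cycling mTEChi expressed Aire at the level of the comparison cells. It had 10.6, 1327.9 and 2421 CPM as lowest, median and highest in the 15 cells, against 0, 1319.5 and 4065 in the comparison cells, and 14 of 15 were at 20 CPM or more. The antigens and maturation genes differed. Of 14 tissue antigens 7 were lower in cycling mTEChi and 1, Crp, was higher, with a median log2 fold change of -2.94. The milk protein gene Csn2, an antigen known to depend on Aire, had 6.27, 30.2 and 978.9 CPM against 1.32, 806.3 and 2389. Summed over the antigens the cells had 11.8, 122.6 and 1563.1 CPM against 5.52, 1168.04 and 8624, and 12 of 15 lay below the comparison lower quartile. Among cells with Aire at 20 CPM or more, the antigen median was 138.2 CPM in 14 cycling cells and 1206.9 in comparison cells, about as far apart as over all cells. The cells between the classes had a median of 1372.5.

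Few MHC class II genes passed the size rule, all as lower, 2 of 11 in cTEC (H2-Oa and Ctss), 0 in mTEClo and 2 in mTEChi (H2-Oa and H2-Ob). Summed per cell, cycling mTEChi had 3886, 6498 and 10798 CPM as lowest, median and highest, against 301.5, 9979.96 and 18893, and 14 of 15 lay below the comparison median. In cTEC the medians were 4674 and 5940.01, with 15 of 16 below the comparison median, and in mTEClo 3769 and 4874, with 23 of 25 below it. By batch, the summed level was lower in cycling mTEChi in all 5 batches, but higher in cycling cTEC of batch 20 (6011 against 5734 CPM) and in cycling mTEClo of batch 16 (4087 against 3288) and batch 20 (3860 against 3580). The costimulatory ligand Cd80 was lower in mTEChi (medians of 120.04 and 178.4 CPM), while Fezf2, a second regulator of tissue antigens, was not called, with 194.1 and 333.1. Of the 19 medullary genes Cd80, Ccl20, Cldn3 and Cldn4 were lower in mTEChi, Tnfrsf11b and Skint2 in cTEC, and 0 in mTEClo. Their sum per cell still had a median of 317.1 CPM in cycling and 623.5 in comparison mTEClo. There 18 of 25 cycling cells lay below the comparison lower quartile and 3 above the upper one. Summed by batch, it was lower in cycling mTEClo of batches 16, 18 and 20 and higher in batches 17 and 19. The medians were 666.2 and 798.6 in cTEC, and 5775 and 6098.2 in mTEChi.

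Among 18 medullary and 10 epithelial genes measured in mTEChi, 2 and 1 were higher in cycling cells. Over all genes measured there, 8.73% were higher and 12.8% lower, so nothing is read from the number. The 3 genes are known from basal epithelium. Beside them 4 medullary genes and 1 epithelial gene were lower, and the lists had median log2 fold changes of -0.22 and -0.56. Keratin 5 (Krt5) had 0, 115.6 and 1998.3 CPM as lowest, median and highest, against 0, 23.9 and 2395, and keratin 14 (Krt14) 12.97, 144.1 and 972.5 against 0, 37.02 and 1630.6. Integrin beta 4 (Itgb4), which anchors basal cells to the basement membrane, had medians of 818.3 and 132.5. In the other sorts none of these 3 genes was called. Of 8 keratinocyte genes 4, 6 and 7 were measured in cTEC, mTEClo and mTEChi, and 0, 0 and 5 of these were lower. In mTEChi Krt10 had 3.32 against 34.3 CPM and Spink5 2.18 against 85.5. Of 9 tuft cell genes 5, 8 and 7 were measured in cTEC, mTEClo and mTEChi, and 0, 2 and 3 of these were lower. In mTEClo, where 5.52% of all genes measured were lower, the tuft regulator Pou2f3 had 20.2 against 67.5 CPM and the channel Trpm5 6.56 against 91.9. The tuft genes summed per cell had medians of 250.8 CPM in cycling and 287.1 in comparison mTEChi, and 270.1 and 378.5 in mTEClo, so that the cells overlapped widely. Among the transcription factors Elf3, Klf5 and Ovol1, known in differentiating epithelia, were lower in mTEChi, at 24.2 against 130.7, 28.99 against 163.4 and 17.6 against 56.8 CPM, and Hoxa3 was higher, at 9.29 against 3.75.

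**Figure D4:**
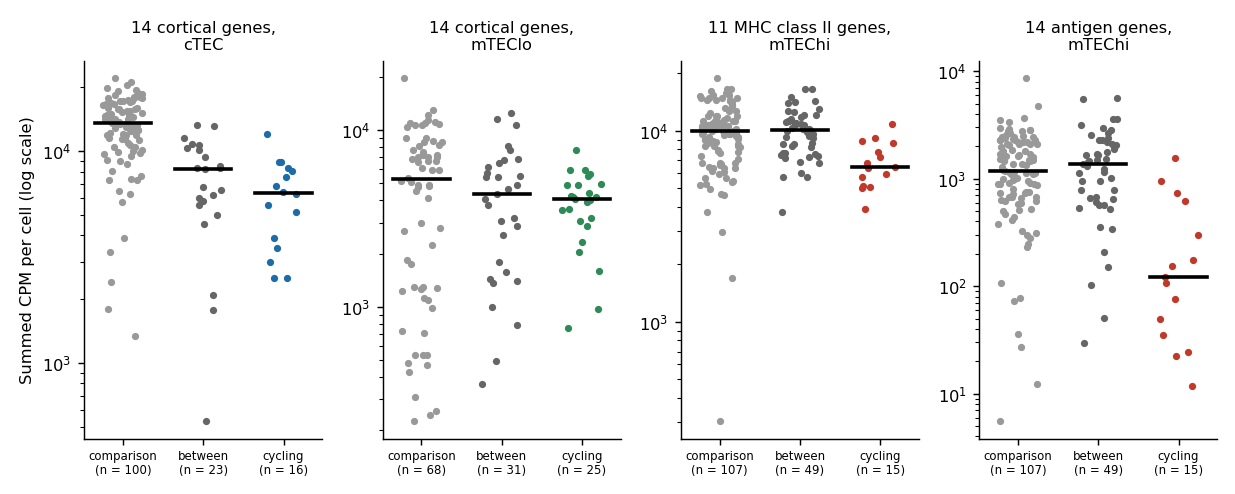
Summed CPM per cell (vertical log axis) of 14 cortical genes in cTEC and in mTEClo, and of 11 MHC class II genes and 14 antigens in mTEChi, for comparison cells, cells between the classes and cycling cells, with bars at the medians. Cycling cells had medians of 6323, 4101, 6498 and 122.6 CPM, against 13525, 5279.7, 9979.96 and 1168.04 in comparison cells.

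Of 15 imprinted and fetal growth genes 11, 12 and 13 were measured in cTEC, mTEClo and mTEChi. Of these 0, 1 and 2 were higher in cycling cells and 0, 2 and 2 lower. Over all genes measured, 7.38, 5.85 and 8.73% were higher and 4.52, 5.52 and 12.8% lower. H19 was higher in cycling mTEClo (357.5 against 86.2 CPM), and Grb10 (311.3 against 76.1) and Hmga1 (19.05 against 7.06) in mTEChi, while Dlk1 and Cdkn1c were lower in mTEClo and Igf2bp1 and Lin28b in mTEChi.

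Markers of other cell types were read in the same cells. The summed CPM of 18 thymocyte markers ran from 10.5 to 91.7 in cycling cTEC and from 0 to 9082 in comparison cTEC, from 4.36 to 125.6 and from 1.27 to 781.9 in mTEClo, and from 35.3 to 1029.2 and from 6.54 to 5089.9 in mTEChi. Of these markers 13, 2 and 10 were measured in cTEC, mTEClo and mTEChi, and 12, 0 and 5 were lower in cycling cells and 0 higher. A few comparison cells of very high level weighed on these calls in cTEC. Per cell the median was 48.9 CPM in cycling and 25.5 in comparison cTEC, with 10 of 16 cycling cells above the comparison upper quartile, 32.8 and 37.8 in mTEClo, and 236.9 and 328.6 in mTEChi. Cd3d, Rag2, Dntt and Ptcra were at 0 in all cycling cTEC, Cd3g, Rag2, Cd8b1 and Cd2 in all cycling mTEClo, and Cd3d, Cd3e and Rag2 in all cycling mTEChi. With comparison cells held to the range of the cycling cells, a choice made after the data were seen that kept 88% of comparison cTEC, 92.6% of mTEClo and 93.5% of mTEChi, 7.74% of genes were higher and 3.62% lower in cTEC, 5.903 and 5.24% in mTEClo, and 8.74 and 12.8% in mTEChi. Thymocyte markers were then lower in 0, 0 and 2 cases, the cortical genes in 7, 6 and 3, the antigens of mTEChi in 7, and 12 growth genes were higher in mTEChi. The limit took the highest thymocyte levels out of the comparison cells, so the drop in thymocyte calls was built in. The part of thymocyte RNA in the other counts was not tested.

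Mesenchymal markers went different ways in the sorts. Of 10 markers 6, 7 and 8 were measured in cTEC, mTEClo and mTEChi. In cycling cTEC 2 were higher and 1 lower, and in mTEClo 3 higher and 0 lower. In mTEChi 0 were higher and 2 lower, and the sum over all cells was 340.4 against 587.1 CPM. Over all genes measured, 7.38, 5.85 and 8.73% were higher and 4.52, 5.52 and 12.8% lower. Per cell the markers had medians of 162.9 and 36.6 in cycling and comparison cTEC (1.35 to 1426.2 and 0 to 1363.9997), 270.4 and 148.1 in mTEClo (31.9 to 3829 and 0 to 1564.02), and 229.7 and 203.4 in mTEChi (105.3 to 843.3 and 0 to 5822). In cTEC the gene Fbn1 of the microfibril carried most of it, at 217.7 against 29.7 CPM, and Prrx1 was at 0. In mTEClo Col3a1, Pdgfrb and Lum were higher, at 23.7 against 10.2, 84.6 against 10.9 and 6.16 against 0.635. Endothelial markers were lower for 1 of 2, 1 of 4 and 1 of 4 measured in cTEC, mTEClo and mTEChi. B cell and myeloid markers were lower for 1 of 2, 2 of 3 and 2 of 8 measured. Only 1 of 7 erythroid markers was measured in each sort, and 0 were lower. With so few measured, nothing is read from these counts. The part of these RNAs in the other results was not tested.

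The genes higher in cycling cells of all 3 sorts were 49.7% of those higher in cTEC, 59.05% of those in mTEClo and 35.2% of those in mTEChi, and 42.03% of them were in the cell cycle lists. Lower in all 3 were 63 genes, which is 10.6, 8.15 and 3.12% of the lower genes. In 2 sorts 48 genes were called in opposite directions. Ranked by fold, the leading higher gene in cTEC and mTEClo was Iqgap3, a scaffold of the cell cortex linked to proliferation, at 443.4 against 1.15 CPM in cTEC and 604.5 against 2.47 in mTEClo. Esco2, which acetylates cohesin in S phase, was among the leading 6 in both, at 87.1 against 0.257 and 149.3 against 0.794. Kntc1 (200.3 against 1.94) and Kif18b (172.4 against 1.57) were also among them in cTEC, and the hyaluronan receptor Hmmr (103.3 against 0.0907) and the DNA glycosylase Neil3 (114.4 against 0.522) in mTEClo. In mTEChi Kif14 (129.4 against 0.886), Kif18b (154.3 against 1.47) and Hmmr (103.6 against 0.988) stood beside Ccna2, Espl1 and Hist1h1b. Iqgap3, Neil3 and Kntc1 were on none of the lists.

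Many of the leading lower genes were lower in more than 1 sort. The leading 6 of cTEC were all called lower in mTEClo as well, and Ahnak2 and Prokr2 also in mTEChi. From the leading 6 of mTEClo, Muc5b, Asprv1, Gdpd1 and Ahnak2 were called lower in mTEChi. The leading 6 of mTEChi were called in no other sort. Ranked by fold, the leading lower genes differed by sort, with Ahnak2 named in both cTEC and mTEClo. In cTEC they were Ahnak2 (6.88 against 68.5 CPM), the retinoic acid-degrading enzyme Cyp26b1 (27.4 against 236.4), Cd83 (63.1 against 515.7), Neu2 (6.34 against 52.8), Prokr2 (24.4 against 179.98) and Fxyd2 (14.2 against 103.6). In mTEClo they were the mucins Muc5b (14.2 against 589.2) and Muc5ac (2.09 against 83.9), Asprv1, Gdpd1, Ahnak2 (3.37 against 103.4) and the calcium-sensing receptor Casr (6.85 against 160.6). Muc5b had a per-cell median of 5.83 CPM and a highest of 22685 in comparison mTEClo, so that few cells carried its sum. The same held for Muc5ac, Asprv1, Gdpd1, Ahnak2 and Casr. Their medians in comparison mTEClo were 1.22, 1.19, 2.56, 1.39 and 11.6 CPM, and their highest 1466.9, 1173.3, 657.7, 1604.1 and 2810. In mTEChi they were the immunoglobulin receptor Pigr (0.569 against 133.4), serum amyloid Saa3 (0.569 against 98.1), Myh14 (1.895 against 142.98), Cilp, Krt23 and Tac2. The last 3 had 3 reads each over the 15 cycling cells, or 0.284 CPM, and 86.98, 74.6 and 62.05 CPM in comparison cells. Few cells likewise carried these sums in mTEChi, where Pigr, Cilp, Krt23 and Tac2 had per-cell medians of 1.37, 0.818, 1.05 and 1.05 CPM in comparison cells and a highest of 3617, 1759.6, 1642.07 and 807.3. Of the genes lower in every sort, chosen for naming after their values were seen, the cortical genes Tbata, Ccl25 and Enpep had 329.3 against 1236.3 CPM in cTEC, 56.6 against 290.3 in mTEClo and 76.1 against 227.9 in mTEChi, 213.2 against 887.1 CPM in cTEC, 77.1 against 180.8 in mTEClo and 100.9 against 277.7 in mTEChi, and 98.7 against 219.4 CPM in cTEC, 33.5 against 75.8 in mTEClo and 10.5 against 58.9 in mTEChi, and the autophagy receptor Sqstm1 had 204.7 against 421.7 CPM in cTEC, 108.9 against 273.8 in mTEClo and 120.4 against 333.9 in mTEChi.

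Adult mice had cycling cells by the same rule, in mTEChi and in cTEC. Of the adult WT mTEChi pools 35 cells were cycling in the 4-week males (7.88%, 95% exact binomial interval 5.55 to 10.8%), 1 of 82 in the 4-week females (1.22%, 0.0309 to 6.61%), 3 of 82 at 6 weeks (3.66%, 0.761 to 10.3%) and 0 of 12 at 5 weeks, which allows up to 25%. Newborn mTEChi, at 8.77%, exceeded all 4 adult pools, whose mean was 3.19 ± 3.48% (SD, n = 4), by 5.58 percentage points. The exact 2-sided permutation test over pools gave p = 0.2, the smallest that 1 pool against 4 allows. In mTEClo 0 of 66 adult cells were cycling at 4 weeks, 0 of 74 at 5 weeks and none at 8 weeks, which allows up to 4.55, 4.05 and 1.38%, against 20.2% in newborn cells. The exact permutation test gave p = 0.25, the smallest for 1 pool against 3. In the single adult cTEC pool, 6-week males, 3 of 77 cells were cycling (3.90%, 0.811 to 10.97%), against 11.5% in newborn cTEC, and the intervals overlapped.

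**Figure D5:**
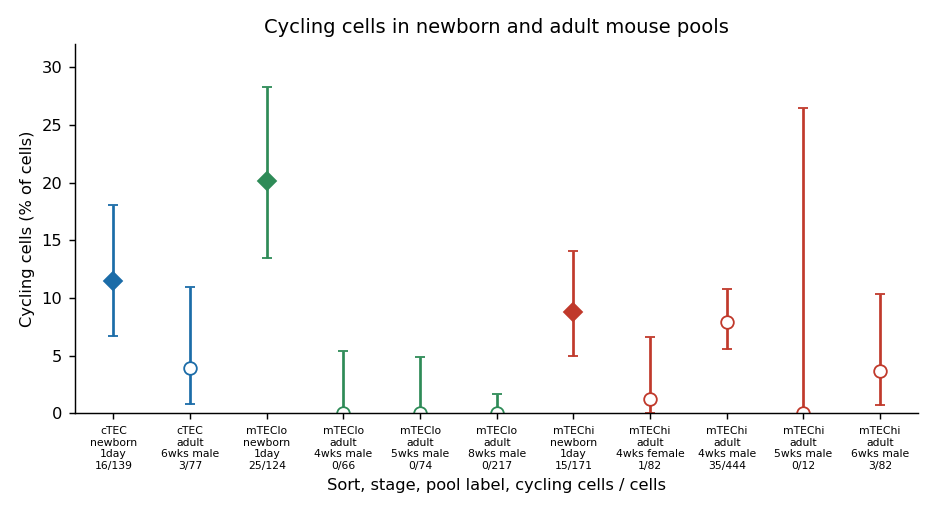
Share of cells that were cycling (vertical axis, percent, with 95% exact binomial intervals) in the newborn pool (diamond) and the adult WT pools of each sort (horizontal axis). Newborn mTEClo lies at 20.2% with all 3 adult pools at 0, and newborn mTEChi at 8.77% lies near the 4-week male pool at 7.88%.

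The 15 newborn cycling mTEChi were then compared with the 35 cycling mTEChi of 4-week males, the only adult pool with at least 5 cycling cells, 1 pool against 1 and without a test over mice. A gene was called at a 2-fold difference, 5 CPM in the higher class, and no overlap between the 4 newborn and the 5 adult batches with 3 or more such cells. By that rule 1.48% of 14224 genes measured were higher in newborn cells and 1.29% lower. With RLE size factors, which shift every gene by -0.16 on the log2 scale, 1.07% were higher and 2.28% lower. Cell cycle genes were seldom called. Aire had 1186.8 against 997.4 CPM in newborn and adult cells, Mki67 899.2 against 1385.9, Top2a 742.2 against 837.2, Mcm5 288.6 against 233.4 and Plk1 120.6 against 166.9, and none of these was called. Of the replication, histone, cyclin and mitosis lists 1 gene was called, the polymerase subunit Pola2 (132.1 against 63.6), and it fell short of 2-fold with RLE size factors and, at a log2 fold change of 0.87, without the newborn cell where it was highest. The median log2 fold change was 0.43 over the S phase genes and -0.46 over the G2/M genes, with 0.01 over all genes.

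Among the identity genes Psmb11 was higher in newborn cycling mTEChi (28.5 against 0.8601 CPM), as was Igf2bp2 (36.5 against 2.77), a fetal RNA-binding protein. A single cell carried most of the Psmb11 level, with 258.3 CPM against at most 22.9 in the other 14 newborn cells, and without it Psmb11 had 8.35 against 0.8601 CPM and was still called. Among those lower were Fezf2 (210.2 against 431.3), H2-Ob (18.003 against 70.7), Trp53inp1 (86.4 against 241.1) and Esam. Csn2 had 248.9 against 267.3 CPM, Krt5 432.6 against 322.2, Krt14 310.3 against 176.7 and H2-Aa 1258.1 against 1197.1, and none was called. The per-cell medians that follow take the 39 cycling mTEChi of all adult WT pools, not the 4-week males alone. Per cell, the antigens had a median of 122.6 CPM in newborn and 265.9 in adult cycling mTEChi, the MHC class II genes 6498 and 6420.3, and the growth genes 1522.98 and 2281. The gene with the largest fold was Xist, at 533.5 against 0.733 CPM, in a comparison of mice of unlabelled sex with males, followed by Krt9 (49.6 against 0.127), Adamts17 (47.9 against 0.255), Wnt7b (39.8 against 0.0637), the chemokine Ccl9 (169.1 against 4.27) and Serpinf1 (33.3 against 0.287). Lower by the largest folds were Ptprv (1.33 against 92.1), Igkc (3.51 against 44.5), Kcnq1 (1.99 against 26.9), Kcnj2 (2.46 against 30.8), the growth factor Igf1 (9.096 against 75.2) and Mafa (3.13 against 28.7). Without the cell where each gene was highest, a check added after the data were seen, Serpinf1 (19.4 against 0.287) and Igkc (3.51 against 35.5) were no longer called, and the newborn levels of Krt9 and Adamts17 came to 24.3 and 12.5 CPM. Age, sex and batches cannot be told apart here, since newborn and adult cells lay in different batches.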

How the data were processed

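The labels gave 2148 samples for 1980 cells, 168 of them sequenced in 2 runs with 1 column of counts, and the group, age, sex and experimental batch of each. The newborn cells were 434, of which 139 were cTEC, 124 mTEClo and 171 mTEChi, and 275 were comparison cells (100, 68 and 107). The adult mTEChi pools held 82, 444, 12 and 82 cells, and the 8-week mTEClo pool 217. The deposited values used are counts, whole numbers of reads per gene without duplicates, which the authors did not normalize. Counts of genes are given as percent of the genes measured, with the same total under every alternative except the edgeR fits, which are read against the genes each tested. Per the submitters' processing notes and the study's methods the authors cleaned reads with fastp 0.20.0, mapped them to mm10 with STAR 2.7.3a, handled alignments and duplicates with SAMtools 1.9 and Picard 2.21.1, counted with HTSeq 0.11.2 and kept cells with over 200000 reads and 8000 genes. How cells sequenced in 2 runs were combined is not given in the sources used here. The deposited table of length-scaled and TMM-scaled values was not used.

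CPM came from the deposited counts, summed over cells for class levels, with 1 CPM added for log2 fold changes (Python 3.11.15, numpy 2.4.6, scipy 1.17.1, pandas 2.3.3, matplotlib 3.10.9). The comparison was tested on simulated data first. The planned test of newborn against adult cycling mTEChi, a quasi-likelihood fit with edgeR 4.0.16 in R 4.3.3 over pools with 5 or more cycling cells, had 4 pools in 4 groups and 0 residual degrees of freedom, so the fold between 2 pools with non-overlapping batches replaced it. Named genes were all genes of the lists and, per sort and direction, the 6 called genes of largest fold with 50 CPM and a read in 50% of cells of the higher class, leaving out predicted genes, pseudogenes and the 7 genes of the rule. For the age comparison the smallest p was replaced by the largest fold, with 20 CPM. A share of 0 was given the limit that 3 counts allow. Alternatives varied the rule, pseudocount, filters, scaling and batches. The members and gene lists were chosen with earlier results of these data known. Symbols and positions came from the GRCm38 annotation. Values of 2 listed genes are not reported here.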

Additional observations from a re-analysis of the deposited data

Results flagged for a closer look

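In 3 listed genes the size rule was passed in opposite directions in 2 sorts, with every batch read agreeing within each sort. The difference between sorts was not tested in any of them.

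Pdgfrb, the platelet-derived growth factor receptor beta of mesenchymal cells, had a log2 fold change of -2.62 in cTEC (0.541 against 8.50 CPM) and 2.85 in mTEClo (84.6 against 10.9 CPM). Klf5, a transcription factor of epithelia, had 1.67 in cTEC (102.2 against 31.5 CPM) and -2.45 in mTEChi (28.99 against 163.4 CPM). Lum, the matrix proteoglycan lumican, had 2.13 in mTEClo (6.16 against 0.635 CPM) and -1.49 in mTEChi (3.88 against 12.7 CPM). Pdgfrb and Lum belong to the mesenchymal markers summed above, so those sums are not separate from them. The part of mesenchymal RNA in these values was not tested.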

How the results depend on the processing

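The share of cycling cTEC was 19.4% with at least 4 of the 7 genes, 6.47% with at least 6 and 5.76% at 50 CPM. With at least 6 genes 11.6% of genes were higher in cTEC. By fold alone, with no condition on batches, 11.8% were lower in mTEClo, and 13.5% higher and 19.5% lower in mTEChi. With a pseudocount of 5 CPM, 2.96% were lower in cTEC and 3.52% in mTEClo, and with 20 CPM in the higher class 2.33% in cTEC, 2.72% in mTEClo and 7.27% in mTEChi. Leaving out 1 batch at a time gave 5.58 to 10.004% lower genes in mTEClo, with the highest value without batch 17.

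For newborn against adult cycling mTEChi, fold alone, chosen after the data were seen, called 14.7% higher and 5.66% lower genes, and RLE size factors 2.28% lower. edgeR over pools with 3 or more cycling cells, with 1 residual degree of freedom, called 0.237% (57) of the 24009 genes it tested higher and 0.0125% (3) lower. Over batches, which are not mice, it called 0.0432% (6) of 13879 genes higher and 0 lower, with 14.2% of them at an unadjusted p under 0.05. DESeq2, a fit of mTEChi alone and leaving out an adult pool were not run for these genes, for lack of residual degrees of freedom or of an adult pool. The order of cTEC and mTEChi shares turned at 6 genes (6.47 against 7.60%) and at 50 CPM (5.76 against 7.60%), and with RLE lower genes outnumbered higher ones. The alternatives on thymocyte markers were also chosen after the data were seen. No paired analysis was possible because the cell numbers that groups share in the labels only name cells and the differences carry no test. The classes were read within batches instead. Depth limits single-cell levels near 1 CPM, about 1 read, and the few cycling cells per batch limit every share.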

Other observations

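Beside the cell cycle lists, the genes higher in cycling cells of all 3 sorts included some of the nuclear pore and of nuclear transport. These genes were picked after their values were seen, on no list and with no test, and the contrast is the one the rule used. The pore scaffold Nup205 had 354.5 against 122.1 CPM in cTEC, 413.9 against 143.6 in mTEClo and 315.5 against 82.98 in mTEChi, and Nup155 241.5 against 87.7 CPM in cTEC, 291.3 against 104.1 in mTEClo and 272.99 against 71.4 in mTEChi. The pore membrane protein Ndc1 had 105.9 against 13.3 CPM in cTEC, 139.9 against 24.1 in mTEClo and 120.4 against 19.8 in mTEChi. Of the transport receptors, importin 5 (Ipo5) had 375.8 against 162.1 CPM in cTEC, 416.7 against 181.6 in mTEClo and 337.3 against 108.7 in mTEChi, and exportin 1 (Xpo1) 283.4 against 140.5 CPM in cTEC, 378.5 against 181.3 in mTEClo and 281.4 against 129.2 in mTEChi. In each sort the fold of Ndc1 was larger than that of either receptor.

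Chromatin genes outside the lists were also among them. The nuclear lamina protein Tmpo had 597.96 against 91.3 CPM in cTEC, 753.7 against 141.6 in mTEClo and 518.1 against 139.1 in mTEChi, the heterochromatin protein Cbx5 476.9 against 111.3 CPM in cTEC, 579.6 against 156.8 in mTEClo and 404.7 against 64.7 in mTEChi, and the remodeller Hells 102.4 against 8.51 CPM in cTEC, 116.7 against 13.1 in mTEClo and 98.8 against 9.85 in mTEChi. The ATPase Atad2 had 365.8 against 32.4 CPM in cTEC, 539.7 against 41.2 in mTEClo and 298.9 against 17.8 in mTEChi. Among the genes lower in all 3 sorts were Csn2, at 4.95 against 42.8 CPM in cTEC, 10.5 against 24.1 in mTEClo and 248.9 against 780.2 in mTEChi, and the mTOR inhibitor Deptor, at 2.63 against 12.1 CPM in cTEC, 6.68 against 39.4 in mTEClo and 16.7 against 103.5 in mTEChi.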
